A study of Mus musculus with 6 samples.

Results

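The keratin genes were described across 6 one-colour Affymetrix arrays of total RNA from cultured dermal cells of neonatal C57BL/6 mice. They were taken as every gene symbol made of Krt and a digit, which leaves out the keratin-associated protein genes, among probe sets with exactly 1 gene symbol. This rule gave 52 of the 19938 genes analysed, and each of the 52 had 1 probe set. The 3 FR samples were cultured with forskolin, which activates adenylyl cyclase, and RepSox, a kinase inhibitor of the type I receptor for TGF-β, each at 20 µM for 2 days. The 3 DMSO samples are named after the solvent and were cultured for 2 days without the 2 compounds. All samples share strain and tissue source, the skin of neonatal mice, and the labels give neither sex nor the animal or culture behind each sample. The p-values therefore reflect the scatter of these 3 samples a group, and that scatter could be technical alone.

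Keratins are the intermediate filament proteins of epithelial cells. A type I (acidic) chain pairs with a type II (basic or neutral) chain, and the pairs assemble into filaments that are anchored to desmosomes and hemidesmosomes and carry mechanical load. Which pair a cell makes depends on its layer and state: basal keratinocytes of the epidermis make Krt5 with Krt14, differentiating cells above them turn to Krt1 with Krt10, wounded or activated keratinocytes add Krt6 with Krt16 and Krt17, simple epithelia use Krt8 with Krt18, and the hair follicle has a set of its own. Fibroblasts build their filaments mainly from vimentin.

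The large rises were those of basal and stress keratins. All 7 measured genes of these classes (Krt5, Krt14, Krt15, Krt6a, Krt6b, Krt16 and Krt17) rose with FR, and the 6 keratins that rose at least 2-fold were all among them. Of the other 45 keratins, 4 rose (Krt13, Krt87, Krt78 and Krt10), by 0.25 to 0.40 on the log2 scale. This share of 8.89% lay under the 13.4% of all genes that rose. Of the 45, 0 fell, where 14.5% of all genes did. The call rule was limma with a Benjamini-Hochberg adjusted p under 0.05 over all 19938 genes. In all, 11 of 52 keratins rose (21.2%), where 13.4% of all genes did, and 6 rose at least 2-fold, where 1.63% of all genes did. With arrays centred on their medians, 9 keratins rose, and 9.43% of all genes were called higher; of all calls 35.3% were then higher, against 48.0% in the main test. Beside the 0 keratins called lower in limma, 1 (Krt2) was lower at an unadjusted p under 0.05. The median log2 change (FR mean minus DMSO mean) was 1.58 over the 7 basal and stress keratins, 0.14 over the other 45 and 0.05 over all genes. The medians are given as a description.

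**Figure D1:**
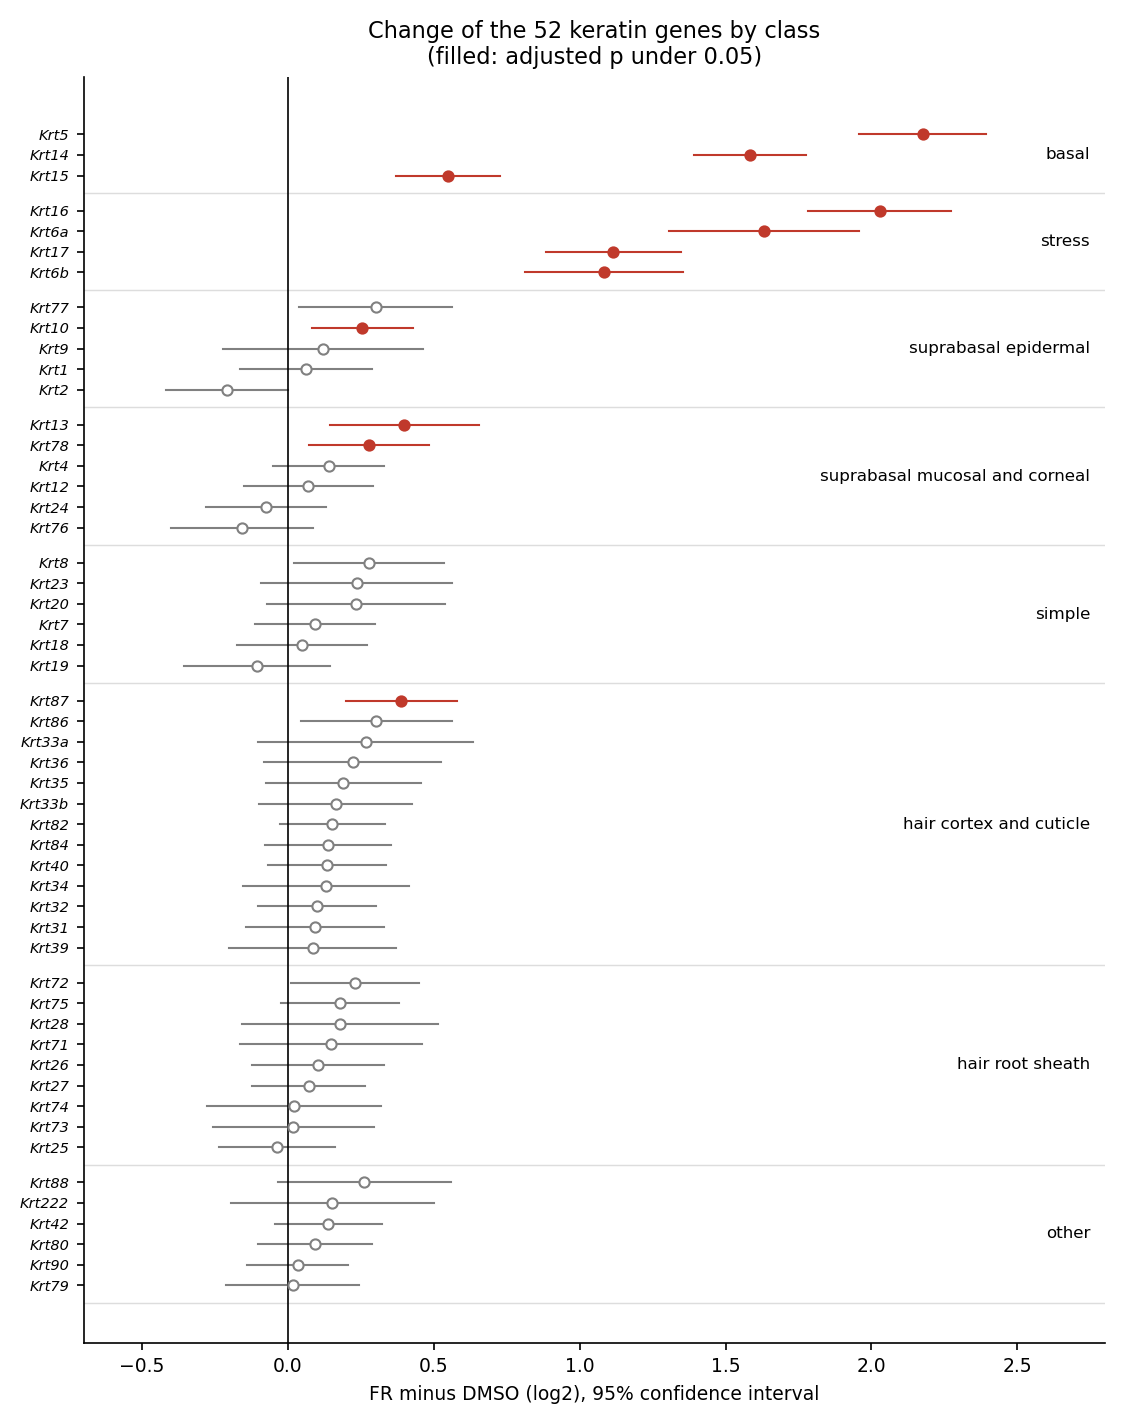
Log2 change (FR minus DMSO) of each of the 52 keratin genes with its 95% confidence interval from limma, grouped by class down the page. Filled points passed at adjusted p under 0.05 and open points did not. The 7 basal and stress keratins lie between 0.55 and 2.18, and the other 45 between -0.21 and 0.40.

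Levels are log2 RMA values, and a level within the range of olfactory receptor genes, which mainly serve sensory neurons of the nose, was read as background. That range ended at 5.65, the 95th percentile of 1027 such genes in DMSO. By this measure 17 keratins lay above background in both groups, 3 (Krt15, Krt34 and Krt75) only in FR, and 32 in neither. The FR means of those 3 were near the level, at 5.67, 5.73 and 5.80. Changes of dim probe sets need care for a further reason: the olfactory receptor genes themselves had a median log2 change of 0.14. Among the 6932 genes with both means under 5.65, 10.6% were called higher.

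Krt10, the type I keratin of differentiating cells, rose by 0.25 on the log2 scale. Its upstream sequence is shown with those of the 2 basal partners Krt5 and Krt14, which rose at least 2-fold. Each is the 250 bases before the annotated start, 5′ to 3′ on the gene's own strand, from RefSeq on GRCm38.p6: Krt5 at chr15:101712906-101713155, Krt14 at chr11:100206031-100206280 and Krt10 at chr11:99389365-99389614, all on the minus strand. Capitals mark a p53 family decamer in Krt5 and a TATAAA element in Krt10, and Krt14 holds neither in this window.
Krt5: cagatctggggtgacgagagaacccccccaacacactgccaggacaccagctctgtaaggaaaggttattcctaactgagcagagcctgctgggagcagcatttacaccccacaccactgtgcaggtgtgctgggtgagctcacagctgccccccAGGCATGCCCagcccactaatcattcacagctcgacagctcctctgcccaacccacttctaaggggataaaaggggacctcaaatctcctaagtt
Krt14: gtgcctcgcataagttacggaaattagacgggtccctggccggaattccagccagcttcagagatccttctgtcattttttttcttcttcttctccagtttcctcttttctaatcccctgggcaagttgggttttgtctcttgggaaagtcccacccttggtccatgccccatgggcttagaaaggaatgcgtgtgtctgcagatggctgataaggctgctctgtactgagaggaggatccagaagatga
Krt10: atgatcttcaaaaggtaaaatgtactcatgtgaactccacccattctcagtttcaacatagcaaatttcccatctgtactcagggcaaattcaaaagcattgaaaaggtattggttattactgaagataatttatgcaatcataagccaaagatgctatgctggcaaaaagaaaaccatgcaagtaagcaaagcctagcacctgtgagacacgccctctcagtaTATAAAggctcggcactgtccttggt

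RefSeq start windows were at hand for 36 of the 52 keratins, among them 5 of the 11 that rose (Krt5, Krt14, Krt10, Krt13 and Krt78). TATAAA, searched on both strands in the 250 bases before the start, was found in 17 of the 36 keratins (47.2%) and in 14.3% of 27025 genes of all kinds. In 12 keratins it began 25 to 35 bases before the start, the usual place of a TATA box. Krt10, where it began 26 bases before the start, was the single one of those 5 risers that held it. The p53 family decamer was found in 1 of the 36 keratins, Krt5, 95 to 86 bases before the start, and in 1.89% of all genes. The cyclic AMP response element TGACGTCA and the SMAD palindrome GTCTAGAC were found in 0 of the 36. They were found in 1.77% and 0.200% of all genes. With shares this low, 0 of 36 cannot set the keratins apart from other genes. The shorter cyclic AMP core TGACG, which the full element contains, was found in 5 keratins, of which Krt5 alone was called (19.8% of all genes). The AP-1 motif TGANTCA was found in Krt13 alone (7.82% of all genes). These are matches of letters and not shown to be sites.

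Krt5 is the type II keratin of basal keratinocytes. Its level was 10.53, 10.38 and 10.48 on the FR arrays, against 8.46, 8.15 and 8.25 on the DMSO arrays. The groups were far apart compared with their spread: the log2 change was 2.18 (SE 0.10), a 4.52-fold rise with limma adjusted p = 1.17e-07. Only 39 of the 19938 genes rose by more.

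Krt14, the type I partner of Krt5, stood at 8.95, 9.12 and 8.97 in FR, against 7.43, 7.37 and 7.49 in DMSO. It rose by 1.58 on the log2 scale (SE 0.09, limma adjusted p = 3.93e-07), and every FR array was above every DMSO array. Krt15, a further type I keratin of basal cells and of the hair follicle bulge, stood at 5.65, 5.69 and 5.67 in FR, against 5.10, 5.19 and 5.06 in DMSO. Its rise was smaller (log2 change 0.55, SE 0.08, limma adjusted p = 0.000481) and was measured from a DMSO mean under the background level, so its size may be understated. Its FR mean of 5.67 lay barely above that level of 5.65. The 95% confidence intervals of the 3 basal changes ran from 1.96 to 2.39 for Krt5 and from 1.39 to 1.78 for Krt14. For Krt15 the interval ran from 0.37 to 0.73. Each interval is for 1 gene alone, and they do not test whether the 3 changes differ. Krt5 against Krt14 was tested among the partner pairs below.

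The stress keratins are low in resting epidermis between hair follicles and are made after wounding. Krt16, a type I stress keratin, stood at 8.09, 7.84 and 8.03 in FR, against 5.75, 6.03 and 6.10 in DMSO. It rose 4.08-fold (log2 change 2.03, SE 0.11, limma adjusted p = 3.87e-07), next to Krt5 in size within the family.

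Krt6a, a type II stress keratin that pairs with Krt16, stood at 8.36, 8.39 and 8.51 in FR, against 6.82, 6.43 and 7.12 in DMSO. It rose 3.10-fold (log2 change 1.63, SE 0.15, limma adjusted p = 1.46e-05). Its DMSO arrays were the most scattered of the 7 genes (SD 0.35, against 0.08 in FR), yet the highest of them lay more than 1 log2 unit under the lowest FR array. Krt17, a type I keratin of activated keratinocytes and hair follicles, stood at 7.30, 7.62 and 7.28 in FR, against 6.21, 6.30 and 6.33 in DMSO. It rose 2.17-fold (log2 change 1.12, SE 0.10, limma adjusted p = 1.86e-05).

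Krt6b, a near copy of Krt6a, stood at 5.75, 5.64 and 5.42 in FR, against 4.64, 4.27 and 4.65 in DMSO. The groups did not overlap and the log2 change was 1.08 (SE 0.12, limma adjusted p = 7.53e-05), but both means, 5.60 and 4.52, lay under the background level. No other gene of the 7 lay under that level in both groups. The signal of Krt6b is also uncertain, since probes for such close relatives can share signal, and how much they share was not tested. The change of Krt6b was under 2-fold without DMSO replicate 2 and with cyclic loess, where the log2 change was 0.96 both times. Krt14, Krt16 and Krt17 are also closely related in sequence.

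**Figure D2:**
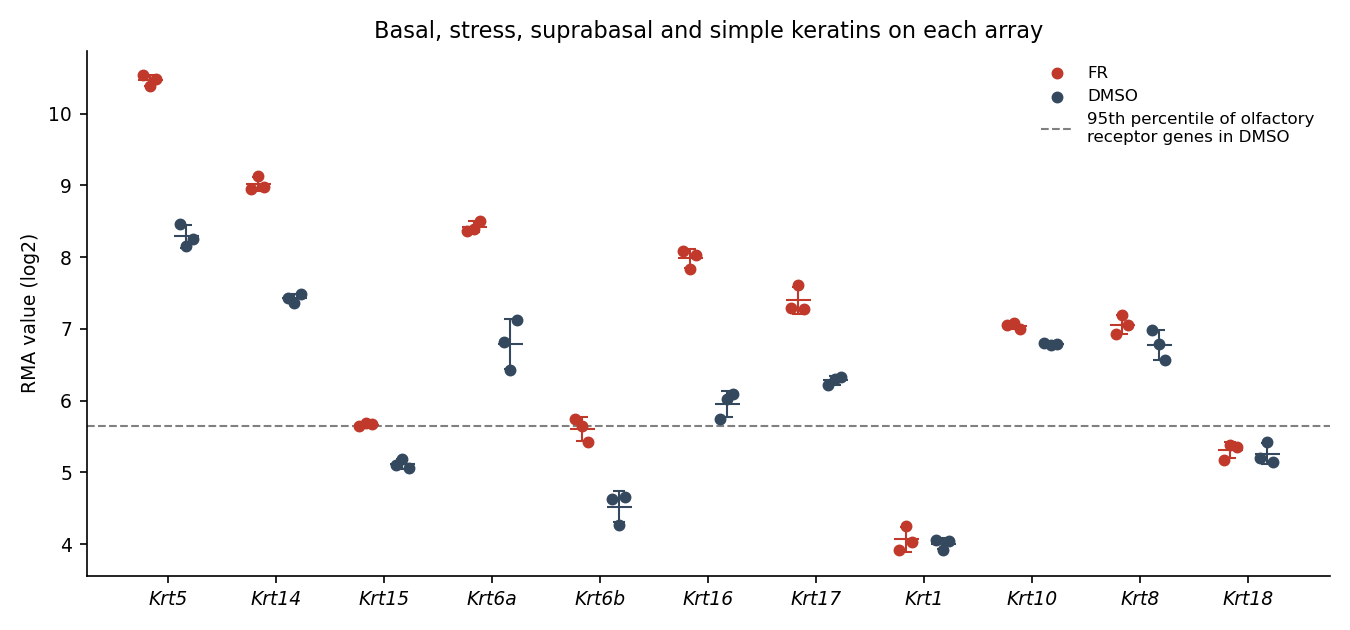
Level (log2 RMA value) of 11 keratin genes on each array, FR at the left of each pair and DMSO at the right, with the mean and SD of 3 arrays. The dashed line is the background level of 5.65. The groups are apart for the basal keratins (Krt5, Krt14, Krt15) and stress keratins (Krt6a, Krt6b, Krt16, Krt17), narrowly apart for Krt10, and overlap for Krt1, Krt8 and Krt18.

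Of the 5 keratins of differentiating epidermis, 1 rose (20.0%, where 13.4% of all genes did), the median log2 change was 0.12, and 4 lay within background in both groups. Krt10, which marks cells that have left the basal layer, stood at 7.06, 7.08 and 6.99 in FR, against 6.80, 6.77 and 6.79 in DMSO. The arrays of each group lay close together, so that a log2 change of 0.25 (SE 0.08) passed, at limma adjusted p = 0.0341, and the call was lost in 8 of 17 alternatives. Krt1, its type II partner, stood at 3.92, 4.26 and 4.03 in FR, against 4.06, 3.92 and 4.04 in DMSO, all within background. Its log2 change was 0.06, with a 95% confidence interval from -0.16 to 0.29, it turned to -0.02 with cyclic loess, and the groups overlapped.

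Krt77, another type II keratin of the suprabasal epidermis, had means of 5.24 ± 0.18 in FR and 4.94 ± 0.18 in DMSO (SD, n = 3 each) and missed the threshold (limma adjusted p = 0.0839). Krt9, the keratin of footpad epidermis, had a log2 change of 0.12 (limma adjusted p = 0.593). Krt2, a late differentiation keratin, was the one member for which every FR array lay under every DMSO array. Its levels were 4.26, 4.41 and 4.51 in FR, against 4.70, 4.53 and 4.58 in DMSO, all within background. The log2 change of -0.21 did not pass in the main test (limma adjusted p = 0.122), but passed with quantile normalization (-0.28, adjusted p = 0.0292) and cyclic loess (-0.32, adjusted p = 0.0160).

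Of the 6 keratins grouped as suprabasal keratins of mucosal and corneal epithelium, 2 rose (33.3%, where 13.4% of all genes did). Krt13, the type I keratin of the differentiating oral and oesophageal lining, stood at 5.19, 5.23 and 5.12 in FR, against 4.92, 4.51 and 4.92 in DMSO, and rose by 0.40 (SE 0.12, limma adjusted p = 0.0264). Its call was lost in 8 of 16 alternatives. Krt78 stood at 5.16, 5.42 and 5.39 in FR, against 5.08, 5.07 and 4.99 in DMSO, and rose by 0.28 (SE 0.09, limma adjusted p = 0.0475). That call held in 4 of 16 alternatives. Both lay within background in both groups. Krt4, the type II partner of Krt13, had a log2 change of 0.14 (limma adjusted p = 0.254), and the other 3, Krt12 of the cornea, Krt24 and Krt76, lay between -0.16 and 0.07.

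The simple keratins gave 0 calls among 6 in the main limma test, where 13.4% of all genes were called higher and 14.5% lower. At an unadjusted p under 0.05 there was 1 (Krt8). In all 6 genes the groups overlapped, as they did in 11192 of the 19938 genes analysed. Krt8, the type II keratin of simple epithelia, stood at 6.93, 7.20 and 7.05 in FR, against 6.99, 6.79 and 6.57 in DMSO. Its log2 change was 0.28 (SE 0.12, 95% confidence interval 0.02 to 0.54, limma adjusted p = 0.102), and it was called when dim genes were removed (adjusted p = 0.0438) or when DMSO replicate 1 was (0.0446). Krt18, its type I partner, stood at 5.18, 5.38 and 5.36 in FR, against 5.20, 5.43 and 5.15 in DMSO, with a log2 change of 0.05 (95% confidence interval -0.17 to 0.27) that turned to -0.05 with quantile normalization and -0.07 with cyclic loess.

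The log2 change was 0.09 for Krt7, a keratin of ducts and glands, and -0.11 for Krt19, which is found in simple epithelia and in the hair follicle bulge. It was 0.23 for Krt20, which is found in Merkel cells and gut, and 0.24 for Krt23. Without FR replicate 2, Krt20 was called at 0.40 (adjusted p = 0.0196) and Krt23 stood at 0.041. Krt7 and Krt8 were the 2 simple keratins above background.

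Hair keratins were represented by 13 genes of the cortex and cuticle and 9 of the root sheaths, and 17 of these 22 lay within background in both groups. Krt81, Krt83 and Krt85 were not analysed here. The one call was Krt87, a type II keratin in the group of hair keratin genes, which stood at 6.41, 6.53 and 6.57 in FR, against 6.19, 6.10 and 6.06 in DMSO. It rose by 0.39 (SE 0.09, limma adjusted p = 0.00667) and passed in 16 of 17 alternatives. The other 12 cortex and cuticle genes had log2 changes from 0.08 to 0.30, the lowest adjusted p being 0.0775 for Krt86, which was called without DMSO replicate 1 (0.41, adjusted p = 0.0292). Krt33a was called without FR replicate 1 (0.48, adjusted p = 0.0145). Krt33b, a type I hair keratin, stood at 7.18, 7.32 and 7.43 in FR, against 7.33, 7.22 and 6.90 in DMSO, with overlapping groups (log2 change 0.16, limma adjusted p = 0.332). The 9 root sheath genes (Krt25 to Krt28 and Krt71 to Krt75) had log2 changes from -0.04 to 0.23. Limma gave 0 calls among these 9, where 13.4% of all genes were called higher and 14.5% lower. At an unadjusted p under 0.05 there was 1 (Krt72), and Krt28 was called without DMSO replicate 1 (0.37, adjusted p = 0.0444).

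The remaining 6 genes belong to none of these classes: Krt42, Krt79, Krt80, Krt88, Krt90 and Krt222. Their log2 changes lay from 0.02 to 0.26 and 0 passed in limma, also at an unadjusted p under 0.05. Of all genes, 13.4% were called higher and 14.5% lower. Krt79, which is found in the duct of the sebaceous gland, was at 6.09 ± 0.16 in FR and 6.07 ± 0.12 in DMSO (SD, n = 3 each).

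Both types of chain were among the risers. Of 28 type I genes 6 rose (21.4%) and of 24 type II genes 5 rose (20.8%), where 13.4% of all genes did. In each type 3 rose at least 2-fold, where 1.63% of all genes did. Whether the partners of a pair changed by unequal amounts was tested for 7 pairs with an exact two-sided permutation test of the difference, which cannot go below p = 0.1 with 3 against 3 arrays. The change of Krt5 exceeded that of Krt14 by 0.59 on the log2 scale, and the difference in level was larger on all 3 FR arrays than on any DMSO array (exact p = 0.1, the smallest possible, and 0.42 adjusted over the 7 pairs). For Krt6a against Krt16 the difference was -0.40 (exact p = 0.3), for Krt6b against Krt17 -0.03 (exact p = 1), for Krt1 against Krt10 -0.19 (exact p = 0.2) and for Krt8 against Krt18 0.23 (exact p = 0.3). The other pairs gave -0.26 for Krt4 against Krt13 (exact p = 0.3) and 0.20 for Krt7 against Krt19 (exact p = 0.4). With this test none of the 7 could pass the threshold.

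In the mouse genome the type I genes lie in a cluster on chromosome 11 and the type II genes, with the type I gene Krt18, in a cluster on chromosome 15. The gene order was read from the GRCm38.p6 gene table, with 27 of the 52 on chromosome 11 and 25 on chromosome 15. The risers of at least 2-fold were neighbours in both clusters. On chromosome 15, Krt6b, Krt6a and Krt5 follow each other with no other keratin gene between them, flanked by Krt75 (log2 change 0.18, limma adjusted p = 0.169) and Krt71 (0.15, adjusted p = 0.457). On chromosome 11, Krt14, Krt16 and Krt17 follow each other in the same way, flanked by Krt9 (0.12, adjusted p = 0.593) and Krt42 (0.14, adjusted p = 0.240). Krt13 and Krt15 are neighbours too, and Krt19, next to Krt15, had a log2 change of -0.11. Krt10, Krt87 and Krt78 rose with no called keratin beside them. Since genes that neighbour each other here also share class and sequence, place, class and similarity of probes cannot be told apart.

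**Figure D3:**
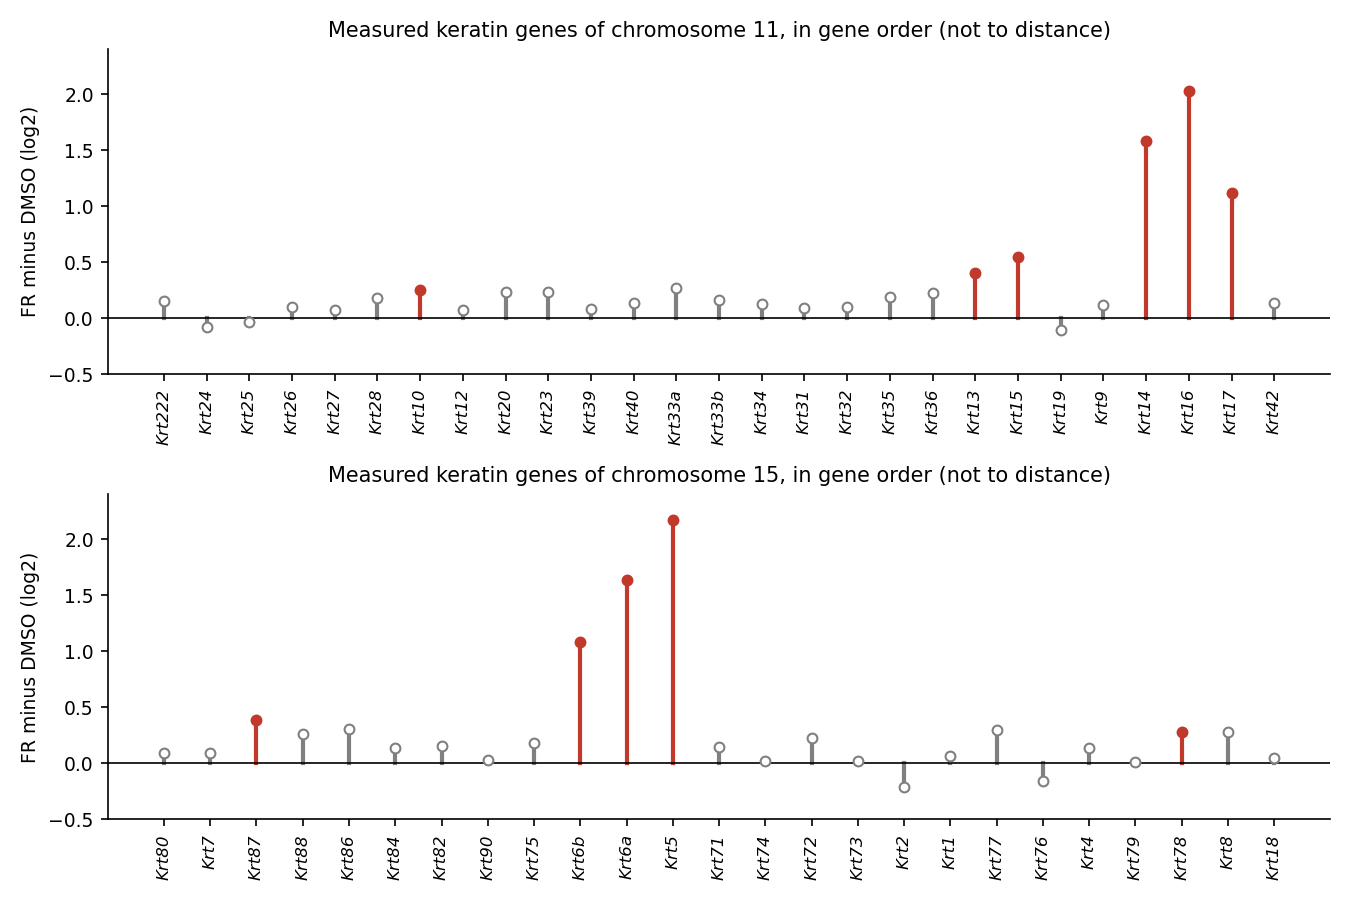
Log2 change (FR minus DMSO) of the measured keratin genes in their order along chromosome 11 (top) and chromosome 15 (bottom), evenly spaced. Filled points passed at adjusted p under 0.05. The 3 tallest bars of each chromosome stand side by side: Krt14, Krt16 and Krt17, and Krt6b, Krt6a and Krt5.

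Across arrays of a group the keratins were about as steady as other genes in FR and less so in DMSO: the median SD was 0.12 for keratins and 0.12 for all genes in FR, and 0.13 for keratins and 0.09 for all genes in DMSO. The mean level of the 7 basal and stress keratins was 7.80, 7.81 and 7.77 on the FR arrays, against 6.35, 6.25 and 6.43 on the DMSO arrays. No single array carried the rise. In 16 of the 52 keratins (30.8%) every FR array lay above every DMSO array, where this held for 23.0% of all genes, and the 16 include all 7 basal and stress keratins. The reverse order was found for 1 keratin, Krt2, and for 20.9% of all genes.

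The labelled tissue was checked with 14 fibroblast markers. All lay above background in both groups, with a mean level of 10.37 to 10.43 on the FR arrays and 10.63 to 10.66 on the DMSO arrays, and 4 rose and 7 fell, where 13.4% of all genes were called higher and 14.5% lower. Cultures from dermis can also hold epidermal cells, and markers of keratinocytes other than keratins moved with the basal and stress keratins. Of 26 measured, 20 rose and 0 fell in limma, also 0 at an unadjusted p under 0.05, with a median log2 change of 0.59, and their mean level was 6.57 to 6.63 on the FR arrays and 5.75 to 5.78 on the DMSO arrays. Bulk arrays cannot tell more cells of a type from more RNA per cell, and the part of this list in the rise of the keratins was not tested.

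The largest change in that list was that of Krtdap, a secreted peptide gene of differentiating keratinocytes, at 7.30 ± 0.38 in FR and 4.88 ± 0.22 in DMSO (log2 change 2.42). Perp, a desmosomal gene, rose by 1.82, Sbsn, a secreted protein gene of suprabasal cells, by 1.61 and Sprr1b, a cornified envelope precursor, by 1.58. The basement membrane adhesion genes rose less, Itga6 by 0.87, Itgb4 by 0.57 and Col17a1 by 0.49. Members that did not pass included Epcam (0.05), Sfn (0.08, though its dimmer probe set passed at 0.41, adjusted p = 0.0222) and Cdh3 (-0.03), and the 6 within background in both groups were Lor, Ivl, Esrp1, Calml3, Fermt1 and Epcam. Among further genes of the cornified envelope, Sprr1a rose by 1.33, Tgm1 by 0.48 and Lor by 0.43, the last within background, and the log2 change of Ivl was 0.31 (limma adjusted p = 0.112).

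Genes for keratin linkers split. Of 13, 5 rose (38.5%) and 4 fell, where 13.4% of all genes were called higher and 14.5% lower. The median log2 change was 0.15. The risers were Perp, then Dsp, which encodes desmoplakin, the protein that ties keratins to the desmosome (log2 change 1.27, SE 0.10, limma adjusted p = 6.19e-06), Ppl (0.65), Pkp1 (0.61) and Pkp3 (0.35). Plec, which links keratins to hemidesmosomes and vimentin to focal contacts, fell by 0.80, Dst by 0.69, Macf1 by 0.36 and Jup, which encodes the desmosomal protein plakoglobin, by 0.48. The desmosomal gene Pkp2 (-0.16) and the envelope gene Evpl (0.12) did not pass. Plec, Dst and Macf1 are also used by fibroblasts.

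Of 17 non-keratin intermediate filament genes, 3 rose (17.6%) and 4 fell, where 13.4% of all genes were called higher and 14.5% lower. The median log2 change was 0.09. Vim, the vimentin gene, had a mean of 11.52 ± 0.02 in FR and 12.18 ± 0.03 in DMSO and fell by 0.66 (SE 0.08, limma adjusted p = 9.89e-05). The lamin genes Lmna and Lmnb1 fell by 0.83 and 0.41, and Iffo2 by 0.30. The 3 of 17 that rose were dim: the neurofilament genes Nefl (0.55) and Nefm (0.39), both within background, and Nes (0.39). The desmin gene Des did not pass (0.05, adjusted p = 0.808).

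Among 22 genes for transcription factors that act on keratin or epidermal genes, 11 rose (50.0%, where 13.4% of all genes did) and 2 fell. The share of all genes called lower was 14.5%. The median log2 change was 0.29, and 8 lay within background in both groups, among them the risers Grhl2, Foxn1 and Tfap2c. Trp63, which encodes p63, the p53 family factor that basal keratinocytes depend on, stood at 7.16 ± 0.14 in FR and 5.96 ± 0.13 in DMSO, a 2.30-fold rise (SE of the log2 change 0.10, limma adjusted p = 9.71e-06). Cebpa rose by 1.92; it serves fat cells as well as keratinocytes. Tfap2a rose by 0.58, from a DMSO mean under the background level, and Klf5 by 0.57. The members that fell were Klf4 (-0.46), a factor of terminal differentiation, and Bnc1 (-0.42), a basal cell factor. Grhl3 and Ovol2 were at 0.06 and 0.02.

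**Figure D4:**
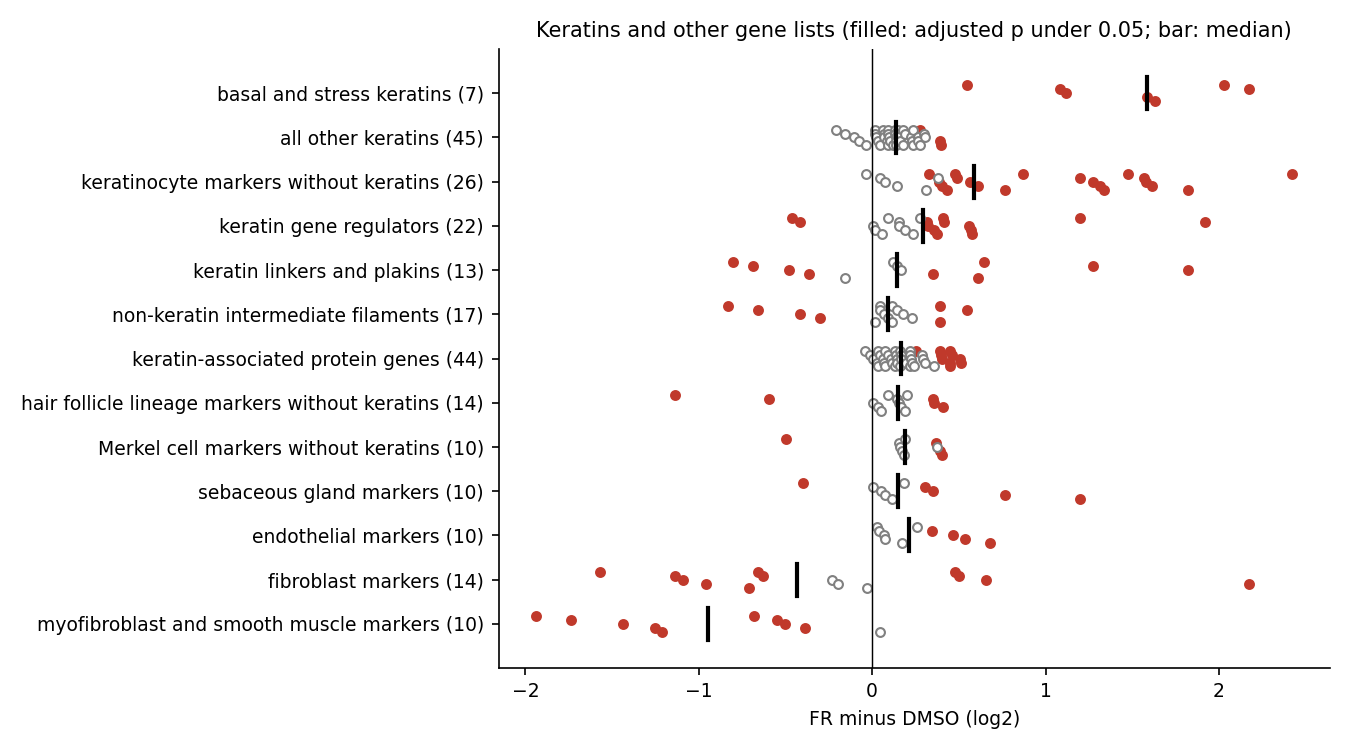
Log2 change (FR minus DMSO) of each gene in the keratin groups and in 11 other lists, with the number of genes in brackets and the median as a bar. Filled points passed at adjusted p under 0.05. The basal and stress keratins have a median of 1.58, the non-keratin keratinocyte markers 0.59, the other keratins 0.14, and the myofibroblast and smooth muscle markers -0.95.

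Further lists covered the cells that make hair and simple keratins, to be read against the 13.4% of all genes called higher. Of 14 non-keratin genes of hair follicle lineages, 3 rose (21.4%; Dlx3, Foxn1 and Lhx2, by 0.35 to 0.41) and 2 fell: Lgr5, a follicle stem cell gene that other cells also use, by 1.13 and Sox9 by 0.59. The median was 0.15, and 7 were within background in both groups, among them Hoxc13, Shh, Tchh and Dsg4. Keratin-associated proteins fill the space between keratin filaments of the hair shaft. Of 44 such genes measured 10 rose (22.7%), by no more than 0.51, and 0 fell in limma, also 0 at an unadjusted p under 0.05, with a median log2 change of 0.17, and 28 were within background. Of 10 non-keratin Merkel cell markers 3 rose (30.0%) and 1 fell. Atoh1, the defining factor of Merkel cells, was among the risers (log2 change 0.37, limma adjusted p = 0.0494) but within background in both groups, at 4.77 ± 0.22 in FR and 4.40 ± 0.17 in DMSO.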

How the data were processed

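Titles gave each of the 6 arrays its group. The deposited table holds log2 values for 35556 probe sets, which the authors made by RMA in the oligo package, per the submitters' processing notes (its version is not given in the sources used here). This method normally includes quantile normalization, and nothing further was applied. The platform annotation named the probe sets (21789 with 1 symbol), with the brightest taken per gene, and all 52 keratin symbols matched the GRCm38.p6 gene table by gene ID. FR was compared with DMSO by limma 3.58.1 under R 4.3.3 (lmFit, then eBayes, two-sided, a model of group alone, dim genes kept), with Benjamini-Hochberg adjustment over 19938 genes and a threshold of 0.05. Levels of different probe sets were not ranked against each other, apart from the background level, and the differences within partner pairs were compared only between groups. Precision is limited by the number of arrays: over all genes, log2 changes had a median SE of 0.10.

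Array medians lay between 6.01 and 6.07 in FR and between 5.98 and 6.00 in DMSO. Arrays correlated across genes with r from 0.993 to 0.994 within FR, of 0.996 within DMSO and from 0.972 to 0.978 between groups. Slide and scan batches were not analysed here. The members, classes, gene lists, motifs and background rule were chosen with earlier results of these data known. All keratins could be named, and of each other list mainly up to 4 members that passed with the largest change; further members were chosen after their values were seen. On simulated data for 19938 genes, 41 of 100 genes changed by 0.5 and 92 of 100 changed by 1 on the log2 scale were recovered, with 4 false calls. Only those genes were changed there, whereas 5559 genes (27.9%) were called in the real data. The adjustment depends on that share, so these recovery and false call counts do not carry over to the real data. Alternatives were quantile normalization, median centring, cyclic loess, a filter on dim genes, other uses of probe sets, other variance models, a test against a log2 change of 0.5, a block for the replicate number, and the removal of single arrays.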

Additional observations from a re-analysis of the deposited data

How the results depend on the processing

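The rises of Krt5, Krt14, Krt16, Krt6a and Krt17 passed in all 17 alternatives, that of Krt6b in all 16 that tested it and that of Krt15 in 15 of 16, with the test against a log2 change of 0.5 as the exception. That test called 6 keratins higher. The 4 small calls (Krt10, Krt13, Krt78 and Krt87) each failed at least there. The count of keratins called higher lay between 8 and 12 when single arrays were left out, with 8 without DMSO replicate 2 and 12 without DMSO replicate 1, and 0 were called lower. The count of at least 2-fold rises was then 5 to 6. With quantile normalization 1 keratin was called lower, and 1 with cyclic loess (Krt2 both times). With dim genes left out, 11 keratins were tested and 8 called higher, where 17.5% of all genes kept there were. That filter used the mean over all 6 arrays, so a rise with FR helps a gene to pass it. The 8 of 11 is therefore no separate evidence of a rise.

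The 3 replicate numbers gave correlations between same-numbered arrays of -0.07, 0.05 and -0.03, and 2 of 6 arrays correlated best with their own number. With the number as a replicate block, 10 keratins were called higher: Krt10 and Krt78 were lost (adjusted p 0.0621 and 0.0727) and Krt86 was gained (0.0405).

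Changes near 0 that did not pass turned sign in places, and the cause was not tested. With quantile normalization the log2 changes were -0.049 for Krt18, -0.029 for Krt27, -0.0010 for Krt31, -0.011 for Krt39, -0.076 for Krt73, -0.025 for Krt74, -0.033 for Krt79 and -0.033 for Krt90. With cyclic loess they were -0.024 for Krt1, -0.0074 for Krt12, -0.070 for Krt18, -0.046 for Krt27, -0.017 for Krt31, -0.0079 for Krt32, -0.036 for Krt39, -0.10 for Krt73, -0.051 for Krt74, -0.046 for Krt79 and -0.045 for Krt90. With arrays centred on their medians they were -0.0086 for Krt18, -0.038 for Krt73, -0.036 for Krt74, -0.040 for Krt79 and -0.023 for Krt90, and with array weights -0.0019 for Krt74. With single arrays left out, the changes ran from -0.03 to 0.14 for Krt1, -0.0069 to 0.13 for Krt18, -0.02 to 0.25 for Krt222, -0.080 to 0.034 for Krt25, -0.022 to 0.23 for Krt34, -0.061 to 0.19 for Krt39, -0.10 to 0.11 for Krt73, -0.082 to 0.16 for Krt74, -0.065 to 0.090 for Krt79 and -0.092 to 0.24 for Krt9. The partner difference of Krt6b against Krt17 ran from -0.16 to 0.061.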

Other observations

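Markers of further cell types in skin changed unevenly beside the keratins. Of 10 sebaceous gland markers 4 rose (40.0%, where 13.4% of all genes did) and 1 fell, with a median log2 change of 0.15. Mgst1, a glutathione transferase gene that many cells use, rose by 1.20, and the melanocortin receptor gene Mc5r rose by 0.77 within background. The wax synthase genes Awat1 and Awat2, which are more particular to the gland, were within background in both groups. Awat1 rose by 0.31 (limma adjusted p = 0.0431), Awat2 did not pass (0.12), and Fasn fell by 0.40. Of 10 endothelial markers 4 rose (40.0%, where 13.4% of all genes did) and 0 fell in limma, also 0 at an unadjusted p under 0.05. Of the 10, 6 were within background in both groups, among them the risers Emcn, Tek and Esam. The riser Erg was under the background level in DMSO, and Vwf, Egfl7 and Cdh5, above it in both groups, did not pass. Of 10 myofibroblast and smooth muscle markers 9 fell (14.5% of all genes did) and 0 rose in limma, also 0 at an unadjusted p under 0.05, led by Tagln (-1.94) and Acta2 (-1.74), on the arrays where Krt5 and Krt14 rose.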
